A study of Mus musculus with 8 samples.

Results

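The Notch pathway was described through 10 genes, namely the receptors Notch1, Notch2 and Notch3, the ligands Jag1, Jag2, Dll1 and Dll4, and the target genes Hes1, Hey1 and Nrarp. They were chosen by their gene symbols among the 32285 genes of the count matrices, and all 10 were found. Their unique molecular identifiers (UMIs, each standing for 1 captured mRNA molecule) were counted by droplet single-cell RNA sequencing in 8 libraries of mouse colon cells, 2 in each of 4 groups. Tissue epithelium came from crypts taken directly from the colon. Organoid epithelium came from colon organoids, crypt cells grown alone in Matrigel, for which the methods describe a medium that holds surrogate Wnt, CHIR-99021, R-spondin 1, noggin, EGF and A83-01. Assembloid epithelium came from colon assembloids, in which organoids are embedded together with primary colon stromal cells, a culture that the study otherwise grew without surrogate Wnt, CHIR-99021, R-spondin 1 and noggin. Assembloid stroma came from the same kind of culture and holds its EpCAM-negative cells. The study's methods give the sequenced cells as derived from C57BL/6 mice, and the study used male mice. Reporter and Bmpr1a lines are named there for other experiments, and no group carried a deletion or transgene by the labels. The stromal cells had been expanded in culture before assembly.

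Notch receptors and their ligands are both membrane proteins, so the signal passes only between cells that touch. A bound receptor is cut by an ADAM protease and by gamma-secretase, and its intracellular part joins the DNA-binding protein RBPJ and a Mastermind coactivator to switch on HES and HEY repressors and the feedback inhibitor NRARP. In the intestinal epithelium, cells that receive the signal hold down ATOH1 and take absorptive or stem cell fates, while ATOH1-positive secretory cells display DLL1 and DLL4. In vessels, DLL4 and NOTCH1 select tip cells, and NOTCH3 is known from mural cells.

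The promoter sequences of Dll1, Dll4 and Nrarp are shown. Each was called below between goblet-like and colonocyte-like cells of tissue and between assembloids and tissue. The first 2 are delta-like ligands and the third is a direct target gene. RefSeq entries on GRCm38.p6, each running from 250 bases before to 50 bases after a start site, were found for 8 of the 10 members. Hes1 and Hey1 had none. The sequences read 5′ to 3′ along the gene, and capitals mark the E-box letters CAGCTG, the kind of site that bHLH factors bind. Of the 2 Dll1 windows, the one that holds these letters is shown, chr17:15376883-15377182 on the minus strand, and the other, chr17:15375774-15376073, holds no match. The Dll4 window is chr2:119325534-119325833 on the plus strand and the Nrarp window chr2:25180508-25180807 on the plus strand.
Dll1: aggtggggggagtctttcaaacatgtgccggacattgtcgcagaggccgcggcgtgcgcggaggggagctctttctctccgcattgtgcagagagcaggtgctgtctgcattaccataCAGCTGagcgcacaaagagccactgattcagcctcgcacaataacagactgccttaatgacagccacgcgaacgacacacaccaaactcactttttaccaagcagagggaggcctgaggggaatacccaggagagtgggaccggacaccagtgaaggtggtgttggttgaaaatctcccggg
Dll4: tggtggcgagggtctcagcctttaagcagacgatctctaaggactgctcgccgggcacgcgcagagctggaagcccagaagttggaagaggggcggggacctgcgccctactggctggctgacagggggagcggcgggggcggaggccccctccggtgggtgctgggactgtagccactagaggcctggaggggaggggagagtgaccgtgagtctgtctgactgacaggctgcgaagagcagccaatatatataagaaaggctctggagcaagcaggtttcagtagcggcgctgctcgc
Nrarp: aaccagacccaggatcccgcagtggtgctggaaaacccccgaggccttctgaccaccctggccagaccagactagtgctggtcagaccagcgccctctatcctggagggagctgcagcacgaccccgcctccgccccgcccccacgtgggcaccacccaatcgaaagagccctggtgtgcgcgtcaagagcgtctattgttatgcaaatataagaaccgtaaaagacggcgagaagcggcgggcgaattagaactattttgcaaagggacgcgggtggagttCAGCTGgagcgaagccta
The E-box letters, which read the same on both strands, were present in the windows of Jag1, Nrarp and in 1 of 2 windows of Dll1, and in 16.3% of all 32851 windows. The RBPJ core letters TGGGAA, searched on both strands, were in none of the members' windows and in 25.6% of all windows, which says only that these letters are not in these windows.

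In GENCODE M21 (GRCm38), Dll1 (ENSMUSG00000014773) spans chr17:15367354-15376872 on the minus strand, Dll4 (ENSMUSG00000027314) chr2:119325784-119335962 on the plus strand, Jag1 (ENSMUSG00000027276) chr2:137081456-137116644 and Jag2 (ENSMUSG00000002799) chr12:112907819-112929776, both on the minus strand. The receptors lie at chr2:26457903-26516663 on the minus strand (Notch1, ENSMUSG00000026923), chr3:98013527-98150361 on the plus strand (Notch2, ENSMUSG00000027878) and chr17:32120820-32166852 on the minus strand (Notch3, ENSMUSG00000038146). The targets lie at chr16:30064384-30067796 on the plus strand (Hes1, ENSMUSG00000022528), chr3:8663359-8667256 on the minus strand (Hey1, ENSMUSG00000040289) and chr2:25180758-25183339 on the plus strand (Nrarp, ENSMUSG00000078202).

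Between 4310 and 29410 barcodes per library passed the cutoffs of at least 500 genes and at most 10% mitochondrial UMIs, which kept 38.7% and 25.4% of the barcodes in tissue and at least 55.1% elsewhere. Median UMIs per kept cell ran from 3363.5 to 35219. In the assembloid epithelium, 3103 and 853 cells with fibroblast, macrophage or other non-epithelial markers were left out. In the stroma, 805 and 76 cells past the epithelial-like gate were left out, of which 690 and 30 also passed the basal squamous gate. Any pair of libraries shared at most 0.980% of the barcodes of either. The summed level of the 8 fibroblast markers in what remained was 171 and 36.0 CPM in assembloid epithelium, between 0.576 and 6.27 CPM in organoids and tissue, and 7693 and 11118 CPM in stroma. Levels below are UMIs per 1000000 UMIs of the summed cells (CPM), given for library 1 and then library 2. A level of a group is an average over its cells, so that fewer cells using a gene and less RNA per cell cannot be told apart in it. Fold changes come from edgeR's quasi-likelihood test over all genes, with Benjamini-Hochberg adjusted p-values and a threshold of 0.05. This fit rescales libraries by TMM factors, which moved the members' log2 fold changes by a median of 0.38 (assembloid against tissue), 0.20 (organoid against tissue) and -0.19 (organoid against assembloid) relative to the ratio of CPM values, with no change of sign among members that were called. The label-given replicates were not stated to pair across groups. Each fit shares its estimate of spread over its groups, so a p-value does not measure the spread of its own 2 libraries alone. In class tests the spread is drawn from all classes of the fit, with the library as a block. Where leaving out a library leaves 1 in a group, the spread comes from the other groups only.

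Both delta-like ligands were lower in cultured epithelium than in tissue, and Jag2 was higher. Dll1 stood at 8.36 and 7.55 CPM in tissue, 0.490 and 0.441 CPM in organoids and 0.222 and 0.289 CPM in assembloid epithelium. The tissue libraries were above every cultured library, and organoids were above assembloids in all libraries. Dll1 was 23.9-fold lower in assembloids than in tissue (log2 fold change -4.58 ± 0.36 (SE), edgeR adjusted p = 4.7e-05) and 14.2-fold lower in organoids than in tissue (-3.83 ± 0.34, adjusted p = 7.08e-05). Organoids and assembloids were not separated by the test for Dll1 (0.75 ± 0.33, adjusted p = 0.0877), but were without organoid library 2 (1.00, adjusted p = 0.0460) and with up to 20% mitochondrial UMIs (0.87, adjusted p = 0.0498), while with all passing cells kept the direction turned (-0.17, adjusted p = 0.749).

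Dll4 followed the order tissue, organoid, assembloid, with 7.25 and 8.50 CPM, 2.22 and 3.53 CPM and 0.710 and 1.10 CPM, and no library of a group reached into the next. It was lower in assembloids than in tissue by a log2 fold change of -2.75 ± 0.31 (edgeR adjusted p = 0.000254) and higher in organoids than in assembloids by 1.50 ± 0.30 (adjusted p = 0.00338). Against tissue, Dll4 in organoids was at -1.25 ± 0.29 (adjusted p = 0.00797). This last call was lost without organoid library 1 (-1.10, adjusted p = 0.0542), without tissue library 2 (-1.11, adjusted p = 0.0781) and with cells of up to 20% mitochondrial UMIs kept (-0.80, adjusted p = 0.0642).

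Jag2, a serrate-type ligand, had 1.13 and 1.16 CPM in tissue, against 8.44 and 8.76 CPM in assembloid epithelium and 10.5 and 17.8 CPM in organoids. All 4 cultured libraries lay above both tissue libraries, the organoids highest. The rise over tissue was 9.85-fold in assembloids (3.30 ± 0.26, edgeR adjusted p = 4.61e-05) and 14.2-fold in organoids (3.83 ± 0.26, adjusted p = 2.12e-05). The 2 cultures did not pass the test against each other (organoid minus assembloid 0.53, adjusted p = 0.0742), but did without organoid library 1 (0.73, adjusted p = 0.0386), with at most 5% mitochondrial UMIs (0.66, adjusted p = 0.0401) and with all passing cells kept (0.69, adjusted p = 0.0266). Jag1, the other serrate-type ligand, stood at 7.55 and 8.64 CPM in tissue, 5.24 and 5.65 CPM in assembloids and 2.87 and 6.99 CPM in organoids, and passed the threshold in none of the 3 comparisons (adjusted p from 0.194 to 0.659), the organoid libraries lying on both sides of the assembloid ones. Without organoid library 2, Jag1 was called lower in organoids than in tissue (-1.07, adjusted p = 0.0196, beside -0.54) and than in assembloids (-0.88, adjusted p = 0.0334, beside -0.36). Without organoid library 1 the difference from assembloids turned to 0.041 (adjusted p = 0.900).

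Among the receptors, Notch1 was lowest in assembloid epithelium, with 3.76 and 5.30 CPM, against 14.6 and 10.6 CPM in tissue and 15.4 and 21.5 CPM in organoids. Assembloid libraries did not overlap with the others, and both organoid libraries lay above both tissue libraries. Notch1 was 2.15-fold lower in assembloids than in tissue (-1.10 ± 0.23, edgeR adjusted p = 0.00450) and 3.65-fold higher in organoids than in assembloids (1.87 ± 0.23, adjusted p = 0.000409). The first of these was lost without tissue library 1 (-0.89, adjusted p = 0.0604) and with at most 5% mitochondrial UMIs (-0.42, adjusted p = 0.224). The higher level in organoids than in tissue (0.77 ± 0.22, adjusted p = 0.0215) was lost without organoid library 1 (0.82, adjusted p = 0.0586), organoid library 2 (0.71, adjusted p = 0.0745) or tissue library 2 (0.57, adjusted p = 0.213), and with up to 20% mitochondrial UMIs (0.48, adjusted p = 0.110).

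Notch2 stood at 7.55 and 5.39 CPM in tissue, 9.90 and 12.4 CPM in assembloids and 10.8 and 24.9 CPM in organoids. Tissue was lowest in both libraries, and the organoid and assembloid ranges overlapped. It rose over tissue in assembloids (1.17 ± 0.31, edgeR adjusted p = 0.0136) and organoids (1.64 ± 0.31, adjusted p = 0.00302), the first call being lost without tissue library 2 (0.94, adjusted p = 0.114) and with up to 20% mitochondrial UMIs (0.74, adjusted p = 0.0731). Notch2 was at 0.47 between organoids and assembloids (adjusted p = 0.213), and was called there without organoid library 1 (0.85, adjusted p = 0.0386). Notch3 was rare in tissue, with 11 and 6 UMIs (0.234 and 0.162 CPM), and stood at 1.25 and 1.73 CPM in assembloid epithelium and 0.581 and 1.49 CPM in organoids. It rose in both cultures, by 3.27 ± 0.53 (adjusted p = 0.00148) and 2.53 ± 0.53 (adjusted p = 0.00470). Between organoids and assembloids Notch3 did not pass (-0.74, adjusted p = 0.190) unless all passing cells were kept (-1.19, adjusted p = 0.0344). Fibroblast-like cells left out of the assembloid epithelium had 10.6 and 15.4 CPM of Notch3, and the fibroblast marker sum was higher in the kept assembloid cells (171 and 36.0 CPM) than in tissue (6.27 and 5.22 CPM) or organoids (0.576 and 1.02 CPM). Dll1, Notch1 and Hey1 were also higher in assembloid stroma than in assembloid epithelium, as given below. The part of remaining fibroblast RNA in the assembloid values of Notch3 and of these genes was not tested.

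Of the target genes, Nrarp fell in assembloids and Hes1 did not pass the test. Nrarp, which encodes an inhibitor of the Notch transcription complex, had 8.12 and 9.69 CPM in tissue, 7.67 and 6.72 CPM in organoids and 1.31 and 2.00 CPM in assembloids. Both assembloid libraries were below the other 4, and tissue was above organoids in both libraries. Nrarp was 4.16-fold lower in assembloids than in tissue (-2.06 ± 0.29, edgeR adjusted p = 0.000763) and 4.01-fold higher in organoids than in assembloids (2.00 ± 0.29, adjusted p = 0.000815). Between organoids and tissue the estimate was -0.05 ± 0.28 (adjusted p = 0.899).

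Hes1, the repressor of Atoh1, was the most counted member, at 233 and 136 CPM in tissue, 108 and 75.9 CPM in assembloids and 93.1 and 130.0 CPM in organoids. Tissue was above the cultures in every library, but its 2 libraries differed by more than the assembloid ones, and neither culture passed the test against tissue (-0.59 ± 0.32, edgeR adjusted p = 0.159, and -0.51 ± 0.32, adjusted p = 0.228). Hey1, a HES-related repressor, was close to undetected in epithelium, with 3 to 20 UMIs a library. Its lower level in organoids than in assembloids (-2.06 ± 0.66, adjusted p = 0.0291) was lost with DESeq2 (adjusted p = 0.202), with no filter on low counts (0.0800) and in 5 of 6 fits without 1 library (adjusted p from 0.0664 to 0.247), the fit without assembloid library 2 being the exception. Between assembloids and tissue Hey1 was at 0.71 (adjusted p = 0.406), and it passed with all passing cells kept (1.96, adjusted p = 0.0345).

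In all, 7 of the 10 members passed the test between assembloids and tissue, 3 higher and 4 lower, where 49.8% of the 19215 genes tested were called, 26.6% higher and 23.2% lower. Between organoids and tissue 6 passed, 4 higher and 2 lower, with 47.4% of all genes called (24.4% higher, 22.98% lower), and between organoids and assembloids 4 passed, 3 higher and 1 lower, with 53.1% of all genes called (24.4% higher, 28.7% lower). The median log2 fold change of the members was -0.39, -0.28 and 0.50, beside 0.03, 0.06 and -0.01 over all genes. The 3 comparisons share libraries, so their members' values are given side by side and not as separate support.

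**Figure D1:**
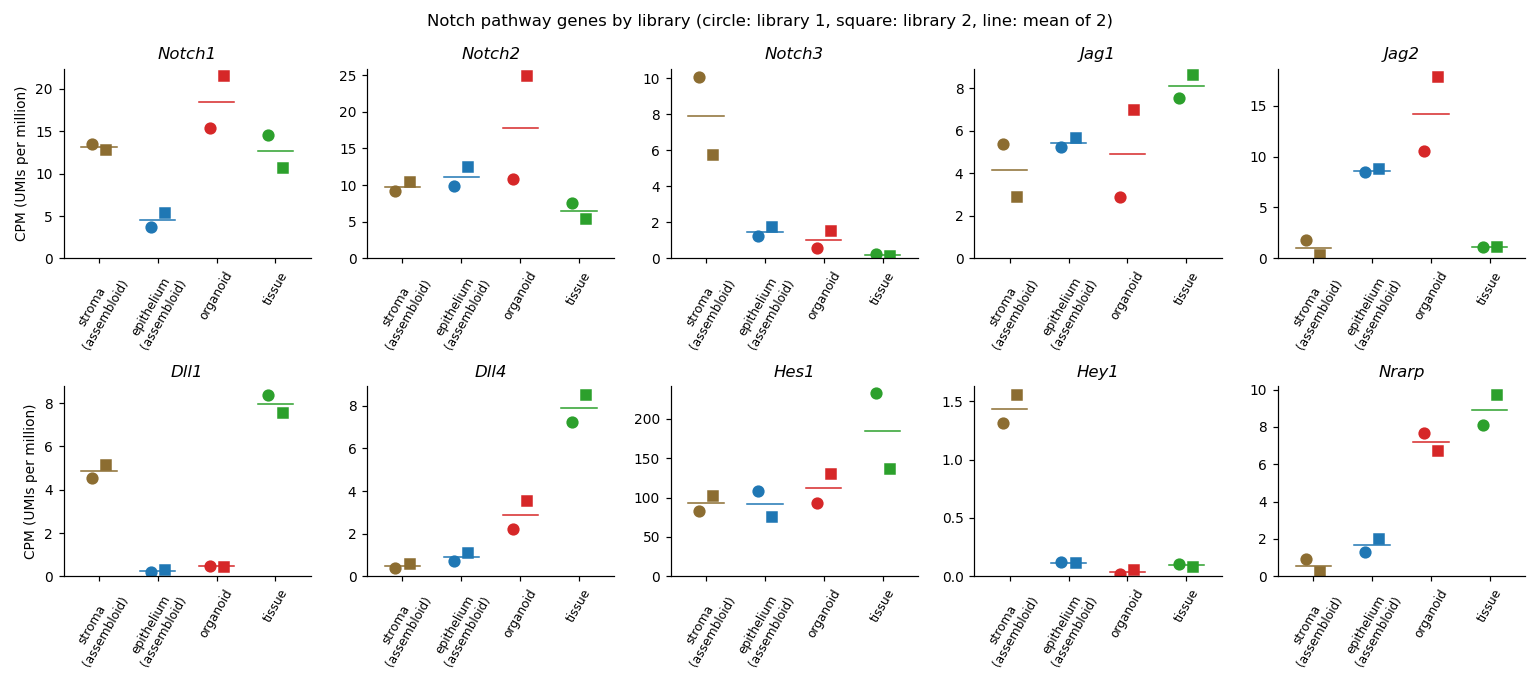
Level of each of the 10 genes (y axis, CPM, from 0) in the 8 libraries, grouped on the x axis as assembloid stroma, assembloid epithelium, organoid and tissue, where circles and squares are libraries 1 and 2 and the line is their mean. Dll1 and Dll4 are highest in tissue (7.55 to 8.36 and 7.25 to 8.50 CPM), Jag2 is at 8.44 CPM or more in all 4 cultured epithelial libraries and at most 1.16 CPM in tissue, and Hey1 is above 1 CPM only in stroma.

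Of 53 other genes of the pathway, 49 passed the filter on low counts and 26 were called between assembloids and tissue, 10 higher and 16 lower, beside 49.8% of all genes (26.6% higher, 23.2% lower). The lower ones with the largest changes were Dlk1, a non-canonical ligand (1.66 and 2.17 CPM in tissue, 0.0309 and 0.0279 CPM in assembloids), and Atoh1 and Gfi1, transcription factors of the secretory lineage. Atoh1 had 48.4 and 55.2 CPM in tissue and 1.06 and 2.54 CPM in assembloids (-4.50 ± 0.40, edgeR adjusted p = 8.77e-05). Gfi1 changed by -3.84 ± 0.49 (adjusted p = 0.000488). Dlk2, a relative of Dlk1, was higher in assembloids, resting on 1 UMI in tissue.

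Between organoids and tissue 19 of these 49 were called, 9 higher and 10 lower, beside 47.4% of all genes (24.4% higher, 22.98% lower). Between organoids and assembloids 28 were called, 17 higher and 11 lower, beside 53.1% of all genes (24.4% higher, 28.7% lower). Maml2, a Mastermind coactivator, had 35.5 and 81.9 CPM in organoids against 2.87 and 2.79 CPM in tissue (4.55 ± 0.33, edgeR adjusted p = 2.66e-05) and 5.68 and 7.61 CPM in assembloids (2.94 ± 0.30, adjusted p = 0.000184). Lfng, a fringe glycosyltransferase that alters which ligands a receptor answers, had 11.3 and 10.9 CPM in organoids and 1.17 and 1.28 CPM in assembloids (3.04 ± 0.24, adjusted p = 7.61e-05). Hes5, a HES-family target, was at 0.944 and 0.570 CPM in organoids and 0.0371 and 0.0466 CPM in assembloids (4.06 ± 0.77, adjusted p = 0.00287). Hes2 was lower in organoids than in tissue (-5.10 ± 0.60, adjusted p = 0.000274), and Dlk1, with 1 UMI in organoids, was lower there than in both other groups.

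Cycling cells were compared next, because their share differed between groups. Cells past a gate of goblet-like, colonocyte-like, enteroendocrine-like or tuft-like cells, described below, were not counted as cycling. The other cells past a gate on 8 cell cycle genes (at least 10 summed marker UMIs per 10000 and at least 3 markers) made up 71.6% and 43.2% of passing cells in organoids (3487 and 3467 cells), 17.6% and 14.8% in the assembloid epithelial libraries (5169 and 1143 cells) and 5.29% and 4.55% in tissue (248 and 196 cells). On either side of the gate, 713 and 652 organoid, 2144 and 336 assembloid and 59 and 60 tissue cells lay between 0.8 and 1.25 times its level. A class cut from such a score is a range of a continuous measure and not a separate cell type.

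Within cycling cells Dll1 was again lower, and Jag2 higher, in both cultures than in tissue, and Dll4 was lower in assembloids. Dll4 was called lower in organoids too, a call lost on leaving out any 1 of the organoid or tissue libraries (adjusted p from 0.0577 to 0.183). Dll1 had 8.07 and 10.2 CPM in tissue and 0.160 and 0.287 CPM in assembloids (-4.93 ± 0.61, edgeR adjusted p = 8.49e-05), and 0.189 and 0.265 CPM in organoids (-4.92 ± 0.58 against tissue, adjusted p = 7.18e-05). Dll4 had 7.29 and 11.0 CPM in tissue, 0.479 and 0.717 CPM in assembloids (-3.47 ± 0.50, adjusted p = 0.000258) and 1.76 and 3.06 CPM in organoids (-1.53 ± 0.45, adjusted p = 0.0213). Jag2 rose over the 2.76 and 3.79 CPM of tissue to 8.49 and 10.8 CPM in assembloids (2.06 ± 0.35, adjusted p = 0.000739) and 10.8 and 17.5 CPM in organoids (2.54 ± 0.34, adjusted p = 0.000205). For each of these the tissue libraries lay wholly apart from the cultured ones.

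Notch1 was more abundant in the cycling cells of tissue (36.8 and 26.9 CPM) than in those of assembloids (5.02 and 7.60 CPM), by -1.91 ± 0.27 for assembloids (edgeR adjusted p = 0.000232). Organoid cycling cells, at 15.1 and 22.6 CPM, were above assembloids (1.52 ± 0.26, adjusted p = 0.000574) and did not pass the test against tissue (-0.39 ± 0.26, adjusted p = 0.278), although both organoid libraries were below both tissue libraries. Notch1 was thus called higher in organoids than in tissue over all cells and not over cycling cells, and the difference between these 2 contrasts was not tested. Nrarp had 16.7 and 15.1 CPM in tissue, 7.79 and 6.64 CPM in organoids and 1.76 and 2.82 CPM in assembloids, lower in assembloids than in tissue by -2.37 ± 0.35 (adjusted p = 0.000284) and higher in organoids than in assembloids by 1.65 ± 0.32 (adjusted p = 0.00150).

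Hes1 in cycling cells was at 325 and 193 CPM in tissue, 83.0 and 117.4 CPM in organoids and 137 and 104 CPM in assembloids, with tissue highest in both libraries. It was lower in organoids than in tissue (-0.98 ± 0.31, edgeR adjusted p = 0.0316) and did not pass between assembloids and tissue (-0.61 ± 0.31, adjusted p = 0.136). The call of Hes1 between organoids and tissue was lost without either organoid library or either tissue library, with adjusted p from 0.0774 to 0.530. Jag1 was at 2.61 and 5.75 CPM in organoids and 6.85 and 9.32 CPM in assembloids (-1.05 ± 0.34, adjusted p = 0.0253), a call lost without organoid library 1 (-0.68, adjusted p = 0.174). Against tissue, Jag1 in organoid cycling cells was at -0.92 (adjusted p = 0.0783). It was called under the stricter gate (-1.25, adjusted p = 0.0483) and with the replicate number as a block, and was at -1.35 without organoid library 2. Notch3 between organoid and assembloid cycling cells (-1.39, adjusted p = 0.0647) was called without assembloid library 1 (-1.73, adjusted p = 0.0216).

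Of the 9 members that passed the filter in cycling cells, 5 were called between assembloids and tissue (1 higher, 4 lower) against 40.5% of all genes (22.3% and 18.2%), 4 between organoids and tissue (1 higher, 3 lower) against 32.1% (16.9% and 15.3%), and 4 between organoids and assembloids (3 higher, 1 lower) against 45.3% (20.1% and 25.2%). Hey1 did not pass it, with 0 UMIs in tissue cycling cells and at most 4 in a cultured library. Of the other pathway genes, 48 passed the filter, and 18, 12 and 21 were called in the same order of comparisons. Atoh1 was at 29.3 and 52.3 CPM in tissue cycling cells, 4.66 and 3.77 CPM in organoid and 0.388 and 0.143 CPM in assembloid ones, where Gfi1 was listed at 0 UMIs. Spdef, a goblet cell factor, was lower in organoid than in tissue cycling cells (-4.94 ± 0.47, adjusted p = 1.55e-05).

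**Figure D2:**
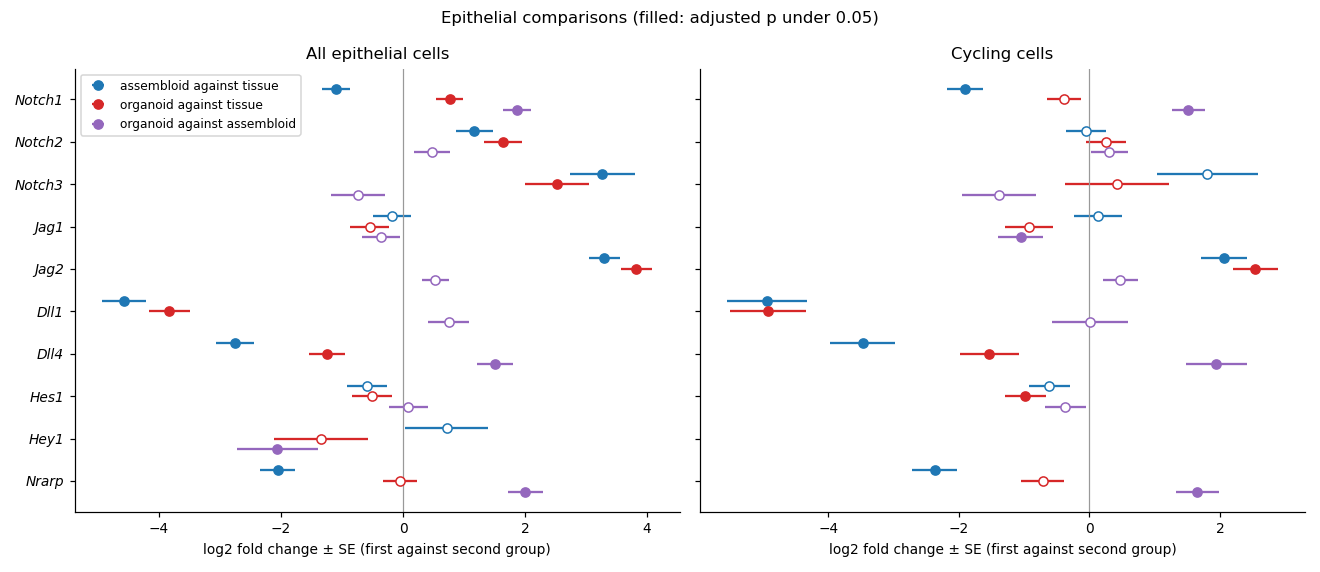
Log2 fold changes (x axis, bars are SE) of the 10 genes in all epithelial cells (left) and in cycling cells (right) for the 3 comparisons of epithelial groups, with filled points for adjusted p under 0.05. Dll1 lies at -4.58 and -3.83 and Jag2 at 3.30 and 3.83 against tissue in all cells, and Nrarp separates assembloids (-2.06) from organoids (-0.05). Hey1 is not drawn at right because it did not pass the filter on low counts.

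In the tissue epithelium, both delta-like ligands were higher in goblet-like than in colonocyte-like cells, and Hes1 and Nrarp were lower. Goblet-like cells were gated on 7 genes including Muc2 and Tff3, and colonocyte-like cells on 8 including Krt20 and Slc26a3, each needing at least 50 marker UMIs per 10000 and 2.5 times the library's median. Tissue gave 425 and 471 goblet-like and 431 and 557 colonocyte-like cells, of median depths between 13508 and 18462 UMIs. On either side of these gates, between 175 and 331 cells a class and library lay between 0.8 and 1.25 times the gate level. No doublet caller was run. Cells past several of the goblet-like, colonocyte-like, enteroendocrine-like and tuft-like gates were left out of these classes. Cells that also passed the cycling gate were kept in them.

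Dll4 stood at 17.8 and 19.3 CPM in goblet-like and 0.695 and 0.700 CPM in colonocyte-like cells of tissue, a 23.5-fold difference (log2 4.56 ± 0.41, edgeR adjusted p = 8.26e-09). Dll1 stood at 15.7 and 13.0 CPM against 1.67 and 2.24 CPM (2.71 ± 0.45, adjusted p = 4.84e-05). The classes did not overlap for either ligand. The Dll1 call was lost without tissue library 1 (2.29, adjusted p = 0.0692), whereas that of Dll4 held in every fit without 1 library. Thinned to 2000 UMIs a cell, 2.28% (95% exact binomial interval 1.05 to 4.29) and 3.70% (2.17 to 5.85) of goblet-like cells held a Dll4 UMI, against 0.265% and 0.225% of colonocyte-like cells, where 1 cell in each library did. Unthinned, the goblet-like shares were 27.3% and 23.6% and the colonocyte-like ones 1.16% and 0.898%. Intervals cover counting error only.

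Hes1 was lower in goblet-like cells of tissue, at 86.7 and 76.6 CPM, than in colonocyte-like cells, at 144 and 97.0 CPM (-0.70 ± 0.21, edgeR adjusted p = 0.0115), and Nrarp was at 3.27 and 5.37 CPM against 6.95 and 11.3 CPM (-1.24 ± 0.39, adjusted p = 0.0151). Goblet-like values lay below colonocyte-like ones in both libraries. Both calls were lost without tissue library 1 (adjusted p = 0.264 and 0.180) and under a gate at double level (adjusted p = 0.220 and 0.134), that of Nrarp also without tissue library 2 (adjusted p = 0.212), and that of Hes1 also without the library block (adjusted p = 0.0907). Notch1 was at 3.93 and 4.96 CPM against 4.03 and 3.22 CPM and did not pass the test (adjusted p = 0.866), but with the stricter gate it was called lower in goblet-like cells (-3.30, adjusted p = 0.00967). In all, 4 of 9 members that passed the filter were called, 2 higher and 2 lower, against 37.4% of all genes (18.8% higher, 18.5% lower).

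Tissue cells with an Atoh1 UMI were a further view of the secretory lineage. Unthinned values split cells by an Atoh1 UMI at full depth, so those sets are not matched in depth. The unthinned orders below carry this limit. With Atoh1 and the members read after thinning, 41 of 214 (19.2%) and 42 of 278 (15.1%) of them held a Hes1 UMI, against 33.5% of 2225 and 21.3% of 2488 cells without one. In library 1 the intervals (14.1 to 25.1% and 31.6 to 35.5%) did not overlap, and in library 2 they overlapped only between 19.7% and 19.9%. Unthinned, Hes1 was in 70.1% of cells with and 78.2% without an Atoh1 UMI in library 1 and in 56.9% and 56.5% in library 2, so the order was lost in library 2. Dll1 was in 3.27% and 1.44% of thinned cells with and in 1.53% and 1.61% of those without an Atoh1 UMI, with no common order, while unthinned it was in 27.1% and 15.8% against 5.25% and 4.70%. Dll4 was in 2.34% and 3.24% of thinned cells with an Atoh1 UMI, from 5 and 9 cells, and in 1.26% and 1.73% of those without one, and the intervals overlapped in both libraries (0.763 to 5.37% and 0.838 to 1.81% in library 1, 1.49 to 6.06% and 1.25 to 2.32% in library 2). Unthinned, Dll4 was in 27.7% and 20.5% against 4.16% and 4.20%. Notch1 was in 1 and 2 thinned cells with an Atoh1 UMI (0.467% and 0.719%) and in 2.92% and 1.97% of those without one, with overlapping intervals, and unthinned in 11.5% and 9.15% against 20.1% and 10.5%. In assembloids only 32 and 17 thinned cells held an Atoh1 UMI, and Hes1 was in 2 of each (6.25% and 11.8%) against 18.1% and 13.3% of the other cells, while unthinned it was in 58.3% and 59.8% of 132 cells in each library against 39.95% and 48.8%, the opposite order. In organoids the 2 libraries had no common order of Hes1, which was in 7 of 67 and 11 of 48 thinned cells with an Atoh1 UMI (10.4% and 22.9%) against 17.0% and 21.2% of those without one, and unthinned in 76.8% and 73.1% against 80.2% and 69.7%.

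Enteroendocrine-like cells of tissue (57 and 109 cells), the hormone-producing secretory cells, also held Dll4, at 17.7 and 20.5 CPM, with little Dll1, at 1 UMI a library. Their Hes1 level, 35.5 and 45.1 CPM, was below that of both goblet-like and colonocyte-like cells in each library. Stem-like cells of tissue, gated on Lgr5 and 6 further genes (311 and 276 cells), had 35.2 and 34.7 CPM of Notch1, 18.2 and 16.8 CPM of Dll1, 15.9 and 14.4 CPM of Dll4 and 264 and 189 CPM of Hes1. Their Notch1 level was similar to that of cycling cells (36.8 and 26.9 CPM) and far above that of goblet-like and colonocyte-like cells. The Dll1 level of stem-like cells was above that of goblet-like cells in both libraries, and their Dll4 level was below it. These levels were not tested, and stem-like cells of assembloids were not compared because at most 1 of the gate's own genes was among their 10 leading genes.

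In assembloids, goblet-like cells (2572 and 691 cells) had lower levels of both ligands than in tissue in every library, a difference of levels that was not tested on its own. Median depths in assembloids were 3133 and 13861 UMIs in goblet-like and 6509 and 16810.5 UMIs in colonocyte-like cells. Near the goblet-like gate, counted on either side of it as for tissue, lay 866 and 199 cells. Near the colonocyte-like gate lay 775 and 223 cells. Dll4 was at 1.82 and 3.07 CPM in goblet-like and 1.22 and 0.946 CPM in colonocyte-like cells (1198 and 704 cells), and did not pass the test (0.91 ± 0.40, edgeR adjusted p = 0.101). Dll1 was at 0.365 and 0.992 CPM, from 5 and 11 UMIs, against 1 UMI in each colonocyte-like library. It was the only member called in assembloids, 1 of 9 against 26.1% of all genes, 12.9% higher and 13.2% lower (2.54 ± 0.90, adjusted p = 0.0415), and the call was lost with DESeq2 (adjusted p = 0.0553), without the library block (adjusted p = 0.0839) and without assembloid library 2 (1.36, adjusted p = 0.591) or either tissue library (adjusted p = 0.104 and 0.0991). Hes1 was at 104 and 82.8 CPM in goblet-like and 65.8 and 42.4 CPM in colonocyte-like cells, with goblet-like cells higher in both libraries (0.56 ± 0.21, adjusted p = 0.0547), and Nrarp at 1.39 and 2.26 against 0.889 and 0.315 CPM (1.41 ± 0.57, adjusted p = 0.0748). Without assembloid library 1, Dll4 (1.41, adjusted p = 0.0423), Hes1 (0.69, adjusted p = 0.00132) and Nrarp (2.54, adjusted p = 0.00550) passed the test. Hes1 and Nrarp also passed with no filter on low counts (adjusted p = 0.00184 and 0.0347) and under the stricter gate (0.85, adjusted p = 1.67e-04, and 2.96, adjusted p = 0.0113), where Notch1 was called too (1.60, adjusted p = 0.0103, beside 0.74).

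The goblet-to-colonocyte difference itself differed between assembloids and tissue for 3 of the 9 members, 2 with a positive and 1 with a negative interaction, against 10.7% of all genes (5.75% positive, 4.92% negative). Assembloid library 1 was shallower in both classes than the tissue libraries. The part of depth and of cells near the gates in the interaction was not tested. For Dll4 the interaction was -3.64 ± 0.61 on the log2 scale (edgeR adjusted p = 0.000316), called in every fit without 1 library. For Hes1 it was 1.25 ± 0.30 (adjusted p = 0.00732), the sign of its class difference being negative in tissue and positive in assembloids, and it was lost without tissue library 1 (1.09, adjusted p = 0.203) and without the library block (1.27, adjusted p = 0.126). For Nrarp it was 2.65 ± 0.69 (adjusted p = 0.0137), lost without tissue library 1, tissue library 2 or assembloid library 2 (adjusted p from 0.137 to 0.159). The Dll1 interaction was -0.18 (adjusted p = 1.0), and that of Notch1, at 0.61 (adjusted p = 0.592), was called under the stricter gate (4.90, adjusted p = 0.00340). Organoids had 93 and 90 goblet-like cells, with 14.9 and 20.2 CPM of Dll4 and 11.1 and 5.52 CPM of Dll1, values on both sides of the 2 tissue libraries for Dll4 and below them for Dll1. They had only 9 and 2 colonocyte-like cells, so that no class difference was computed there.

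Among the other pathway genes, 21 of 49 were called between goblet-like and colonocyte-like cells of tissue, 12 higher and 9 lower, beside 37.4% of all genes (18.8% higher, 18.5% lower). In assembloids 17 were called, 13 higher and 4 lower, beside 26.1% of all genes (12.9% higher, 13.2% lower). The secretory factors Atoh1, Spdef and Gfi1 were higher in goblet-like cells of both groups. Atoh1 had 170 and 158 CPM in goblet-like cells of tissue and 8.75 and 22.7 CPM in those of assembloids, with 4.77 ± 0.36 (edgeR adjusted p = 2.26e-09) and 5.78 ± 0.64 (adjusted p = 1.37e-06) over colonocyte-like cells. Dlk1 was called only in tissue (3.87 ± 1.21, adjusted p = 0.0194), and its interaction did not pass the test. Of the 49 other pathway genes, 2 had a class difference that differed between assembloids and tissue, beside 10.7% of all genes (5.75% positive, 4.92% negative). They were Hes6 (-0.80 ± 0.22, edgeR adjusted p = 0.0183) and Numb, an inhibitor of Notch receptors (0.58 ± 0.18, edgeR adjusted p = 0.0481).

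**Figure D3:**
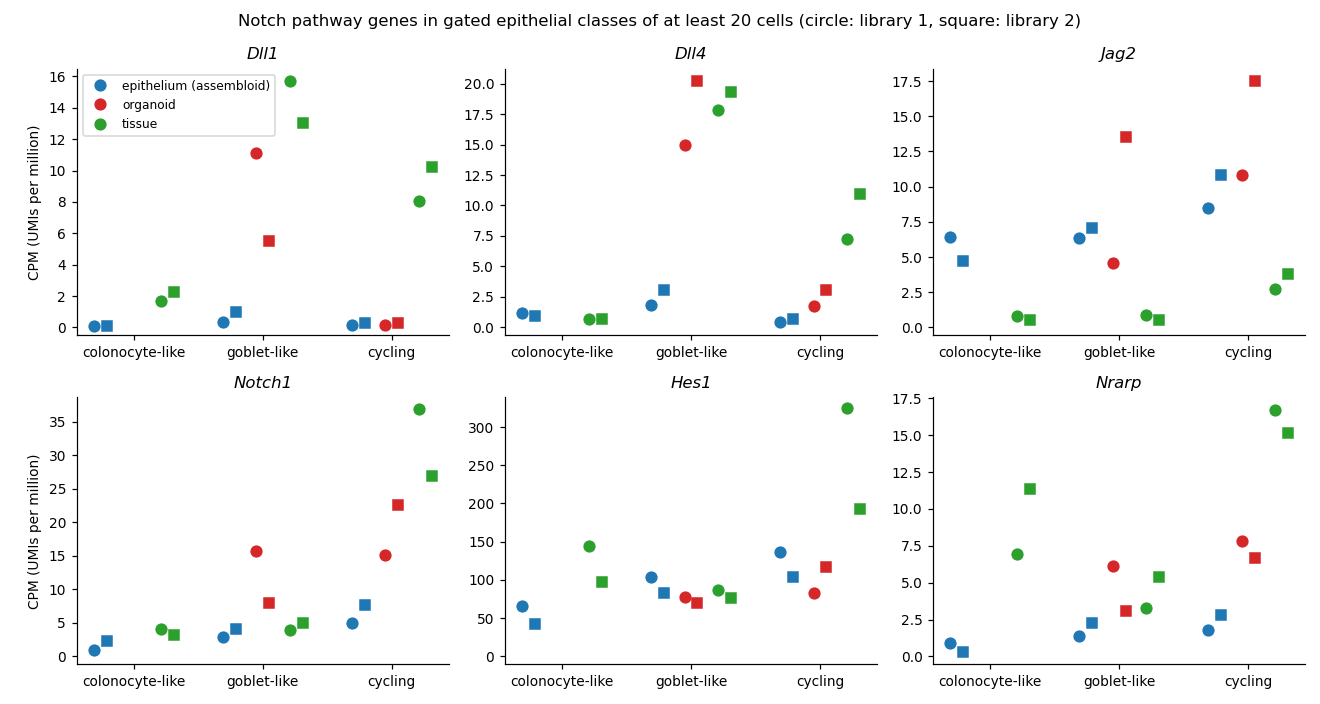
Levels of 6 genes (y axis, CPM) in colonocyte-like, goblet-like and cycling cells of assembloid epithelium, organoids and tissue, for classes of at least 20 cells, with circles and squares for libraries 1 and 2. Dll1 and Dll4 stand at 13.0 CPM or more in goblet-like cells of tissue and at 3.07 CPM or less in those of assembloids, and Notch1 is highest in cycling cells of tissue (36.8 and 26.9 CPM). Organoids are missing from the colonocyte-like column.

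Of the ligands, Dll1 and Jag2 were called between assembloid stroma and assembloid epithelium, and Jag1 and Dll4 were not. Dll1 was a stromal gene in assembloids, at 4.55 and 5.15 CPM against 0.222 and 0.289 CPM in epithelium (4.39 ± 0.31, edgeR adjusted p = 6.84e-06), and Jag2 an epithelial one, at 1.77 and 0.306 CPM against 8.44 and 8.76 CPM (-2.92 ± 0.63, adjusted p = 0.00296). Hey1 had 184 and 213 UMIs in stroma, 1.31 and 1.55 CPM, against 0.124 and 0.112 CPM (3.72 ± 0.49, adjusted p = 0.000199). Notch1 (13.4 and 12.8 CPM, 1.69 ± 0.21, adjusted p = 0.000144) and Notch3 (10.0 and 5.75 CPM, 2.55 ± 0.42, adjusted p = 0.000666) were higher in stroma as well. For each of these 5 genes the stromal and epithelial libraries did not overlap.

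Nrarp was lower in stroma, at 0.911 and 0.247 CPM (-1.36 ± 0.51, edgeR adjusted p = 0.0403), a call lost with the 4 assembloid libraries alone (-1.67, adjusted p = 0.0816) and without assembloid epithelium library 2 (-1.13, adjusted p = 0.119), stroma library 2 (-0.70, adjusted p = 0.137), organoid library 2 (-1.34, adjusted p = 0.0690) or either tissue library (adjusted p = 0.0618 and 0.0616). With all passing cells kept, the difference of Nrarp was 0.16 (adjusted p = 0.823) and that of Jag2 was -1.31 (adjusted p = 0.133). The cells so added include 690 basal squamous-like cells of stroma library 1, at 14.1 CPM of Nrarp and 29.95 CPM of Jag2, whose part in the result was not tested.

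The stromal sums also include 390 and 130 cells that passed no marker gate, whose leading genes include the keratins Krt14, Krt15 and Krt79 in library 1 and Krt5, Krt14, Krt16 and Krt17 in library 2. The summed level of the basal squamous markers was 6310 and 2016 CPM in these cells, against 530 and 30.99 CPM over all stromal cells compared. In library 1 they held 132 of the 248 Jag2 UMIs and 66 of the 128 Nrarp UMIs. With these cells left out, an alternative chosen after seeing the data, the stroma had 0.870 and 0.229 CPM of Jag2 and 0.465 and 0.229 CPM of Nrarp. The differences from assembloid epithelium were then larger, at -3.83 for Jag2 (edgeR adjusted p = 2.22e-04, beside -2.92) and -2.09 for Nrarp (adjusted p = 0.00117, beside -1.36), and no member gained or lost a call.

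Notch2, Jag1, Dll4 and Hes1 did not pass the test between the compartments. Hes1 was at 83.4 and 102 CPM in stroma (0.13 ± 0.32, edgeR adjusted p = 0.715) and Jag1 at 5.40 and 2.89 CPM (-0.26 ± 0.37, adjusted p = 0.550). Dll4 was at 0.392 and 0.597 CPM, below both epithelial libraries (-0.71 ± 0.33, adjusted p = 0.0827). It was called lower in stroma with DESeq2 (-0.99, adjusted p = 0.0178), with no filter on low counts (-1.01, adjusted p = 0.0259), without stroma library 2 (-1.04, adjusted p = 0.0490) and without organoid library 1 (-0.99, adjusted p = 0.0336). In all 6 of 10 members were called, 4 higher and 2 lower in stroma, against 72.8% of the 20587 genes tested (38.5% higher, 34.3% lower). Of the other pathway genes 33 of 52 were called, 21 higher and 12 lower, and Dtx1, a ubiquitin ligase of the pathway, had 0.847 and 0.975 CPM in stroma against 1 UMI in each epithelial library. Hes2 was listed at 0 UMIs in stroma, and Spdef (-6.83 ± 0.53) and Atoh1 (-6.13 ± 0.57) were lower there. The stroma files were made with Cell Ranger 6.0.1 and the epithelial files with 7.1.0, and the version and the compartment cannot be told apart.

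Within the stroma, 7620 and 8569 cells were fibroblast-like, by at least 20 UMIs per 10000 of 8 genes including Col1a1 and Dcn. Telocyte-like cells (469 and 713, gated on Foxl1, Wnt5a and 5 other genes) and trophocyte-like cells (2099 and 2064, gated on Cd34, Cd81, Rspo3 and 3 other genes), the subepithelial and deep fibroblasts of the crypt niche, were cut from these. Endothelial-like cells were few (29 and 70), as were glia-like (90 and 83) and neuron-like cells (69 and 104). Contractile-like cells (112 and 83) were also cut from the fibroblast-like cells, with 59 and 48 cells between 0.8 and 1.25 times their gate level. Fibroblast-like levels include them, while the tests leave them out of the fibroblast-like class. For the telocyte-like class 545 and 634 cells, and for the trophocyte-like class 1417 and 1566 cells, lay between 0.8 and 1.25 times the gate level, on either side of it, so these are ranges and not separate types. Tests between classes keep the library as a block, as the classes of 1 library share their source.

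Of the gated stromal classes, telocyte-like cells had the highest level of Dll1 in both libraries, and they held 189 of 639 and 317 of 707 of its UMIs in the stroma. It had 22.03 and 22.3 CPM in telocyte-like and 2.16 and 1.64 CPM in trophocyte-like cells, with no overlap (log2 -3.43 ± 0.22 for trophocyte-like against telocyte-like, edgeR adjusted p = 7.13e-07). Thinned, 3.62% (2.13 to 5.74) and 2.52% (1.50 to 3.96) of telocyte-like cells held a Dll1 UMI against 0.477% and 0.291% of trophocyte-like cells, and unthinned 21.5% and 23.8% against 3.19% and 2.18%. Notch2 (11.7 and 12.7 against 7.11 and 8.53 CPM, 0.75 ± 0.19, adjusted p = 0.0155) and Notch3 (12.3 and 7.90 against 7.34 and 3.73 CPM, 1.03 ± 0.23, adjusted p = 0.00814) were higher in trophocyte-like cells. Both receptors were higher there in each library, but for Notch3 the libraries of the classes nearly met, and both calls were lost with DESeq2 (adjusted p = 0.0834 and 0.118) and without the library block (0.0717 and 0.0849). In all 3 of 9 members were called, 2 higher and 1 lower, against 13.8% of all genes (7.52% higher, 6.27% lower), and 3 of 41 other pathway genes, Psen2, Hes6 and Dtx3, all higher in trophocyte-like cells by 0.67 or less.

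Endothelial-like cells held more Dll4, Notch1, Jag1 and Nrarp than fibroblast-like cells. Their leading genes in both libraries included Ccl21a, Nts and Lyve1. The gate holds Lyve1, Prox1 and Flt4 beside Pecam1 and Cdh5, so lymphatic and blood vessel cells were not told apart. Dll4 had 85.5 and 42.8 CPM, from 36 and 64 UMIs, against 0.138 and 0.129 CPM in fibroblast-like cells (8.71 ± 0.57, edgeR adjusted p = 1.62e-06). The DESeq2 estimate was 8.83 with an adjusted p of 0.146. Thinned, 22.2% (8.62 to 42.3) and 10.0% (4.12 to 19.5) of endothelial-like cells held a Dll4 UMI against 0.0395% and 0.0351% of fibroblast-like cells, and unthinned 55.2% and 42.9% against 0.210% and 0.198%. Nrarp had 14.3 and 14.1 CPM, from 6 and 21 UMIs, against 0.420 and 0.0683 CPM (6.29 ± 0.82, adjusted p = 6.25e-05).

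Notch1 was at 64.2 and 60.2 CPM in endothelial-like against 11.0 and 11.3 CPM in fibroblast-like cells (2.44 ± 0.19, edgeR adjusted p = 5.25e-07), and Jag1 at 23.8 and 18.1 against 4.60 and 2.58 CPM (2.61 ± 0.34, adjusted p = 6.89e-05). Notch2 (2.38 and 3.35 against 9.24 and 10.7 CPM, adjusted p = 0.0204) and Notch3 (2.38 and 1.34 against 10.2 and 5.89 CPM, adjusted p = 0.0260) were lower, each resting on 1 to 5 UMIs a library, and were lost with DESeq2 (adjusted p = 0.0617 and 0.0821). Of the 8 members that passed the filter 6 were called, 4 higher and 2 lower, against 30.2% of the 11222 genes tested (14.8% higher, 15.4% lower). Jag2 and Dll1 did not pass it. Hey1 (1.61, adjusted p = 0.0788) was called with DESeq2 (1.63, adjusted p = 0.0456). Of 39 other pathway genes 12 were called, 5 higher and 7 lower, among them Notch4, the endothelial receptor, at 19.01 and 14.7 against 1.45 and 1.28 CPM (3.55 ± 0.45, adjusted p = 4.77e-05), and the fringe gene Mfng (6.62 ± 0.76, adjusted p = 5.33e-05).

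Glia-like and neuron-like cells had higher Notch1 and Hey1 than fibroblast-like cells. Notch1 reached 97.1 and 87.4 CPM in glia-like cells, the highest of the stromal classes compared, against fibroblast-like cells by 3.03 ± 0.18 (edgeR adjusted p = 2.68e-08), and 40.2 and 39.5 CPM in neuron-like cells (1.74 ± 0.18, adjusted p = 5.74e-06), below the endothelial-like Notch1 level of 64.2 and 60.2 CPM. Thinned, 17.0% (9.87 to 26.6) and 16.5% (9.06 to 26.5) of glia-like cells held a Notch1 UMI against 2.15% and 1.95% of fibroblast-like cells, and unthinned 47.8% and 49.4% against 14.9% and 14.8%, at median depths of 7381.5 and 7819 against 15001 and 13270.5 UMIs among the cells thinned. Hey1 had 8.45 and 10.8 CPM in glia-like (2.87 ± 0.55, adjusted p = 0.00135) and 9.61 and 7.90 CPM in neuron-like cells (2.66 ± 0.47, adjusted p = 0.000442), against 1.18 and 1.39 CPM, from 6 to 11 UMIs a library. In each case both libraries lay above both fibroblast-like values.

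Jag1 was at 14.1 and 6.72 CPM in glia-like cells (1.51 ± 0.44, edgeR adjusted p = 0.0205), a call lost without the library block (0.0745) and under the stricter gate (0.0797), and at 7.86 and 2.87 CPM in neuron-like cells (0.45 ± 0.44, adjusted p = 0.444). Notch3 was low in both, at 1 to 3 UMIs a library, and was called lower than in fibroblast-like cells (-2.52 ± 0.77, adjusted p = 0.0260, lost with DESeq2 at 0.0942, and -2.06 ± 0.55, adjusted p = 0.00863). Hes1 was lower in neuron-like cells, at 50.7 and 58.2 against 82.7 and 103 CPM (-0.86 ± 0.19, adjusted p = 0.00211), and in glia-like cells it was at 81.7 and 84.7 CPM (adjusted p = 0.556). Glia-like cells were listed at 0 UMIs of Dll1, Dll4 and Jag2. Their sums held only 710253 and 743720 UMIs, so a low level could not be told from absence. Neuron-like cells had 11 and 8 UMIs of Dll1 (9.61 and 5.75 CPM), a gene that did not pass the filter here.

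Of the 8 members tested, 4 were called in glia-like cells, 3 higher and 1 lower, against 28.4% of all genes (15.1% higher, 13.3% lower), and 4 in neuron-like cells, 2 higher and 2 lower, against 42.8% (23.1% higher, 19.7% lower). Of 39 other pathway genes, 11 and 16 were called. Lfng (6.05 ± 0.79, edgeR adjusted p = 6.3e-05), Hey2 (4.25 ± 0.81, adjusted p = 0.00170) and the protease Adam10 (2.60 ± 0.18, adjusted p = 1.47e-07) were higher in glia-like cells. In neuron-like cells Mfng had 40.2 and 77.6 CPM against 0.0382 and 0.0759 CPM (9.77 ± 0.44, adjusted p = 1.43e-08), and Dll3, an inhibitory ligand of neural progenitors, 35.8 and 58.9 against 0.932 and 0.850 CPM (5.58 ± 0.39, adjusted p = 2.71e-07). Contractile-like cells, with Acta2 and Tagln among their gate genes, were compared in the same way with the other fibroblast-like cells. None of 8 members was called with edgeR or with DESeq2, against 3.18% of all genes (1.32% higher, 1.86% lower), and 1 had an unadjusted p under 0.05, Notch3, at 12.7 and 15.7 CPM against 10.2 and 5.89 CPM in fibroblast-like cells (0.76 ± 0.29, adjusted p = 0.202).

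**Figure D4:**
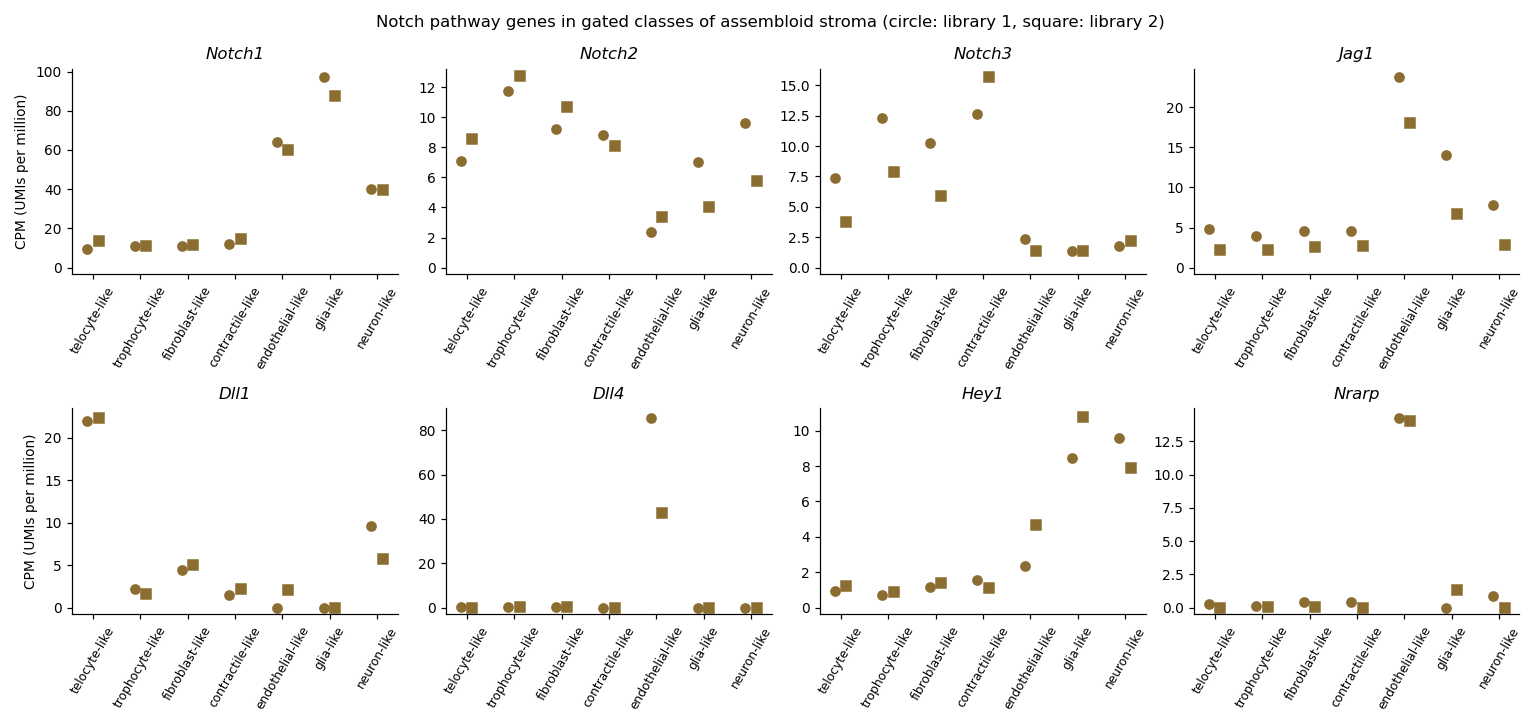
Levels of 8 genes (y axis, CPM, a separate scale for each gene) in 7 gated classes of assembloid stroma, with circles and squares for libraries 1 and 2. Dll4 and Nrarp stand out in endothelial-like cells (42.8 CPM or more and 14.1 CPM or more), Dll1 in telocyte-like cells (22.03 and 22.3 CPM), Notch1 in glia-like cells (97.1 and 87.4 CPM) and Hey1 in glia-like and neuron-like cells (7.90 to 10.8 CPM).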

How the data were processed

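Raw UMI counts of 32285 genes per cell barcode were used as the authors deposited them, without normalization. They had been aligned to mm10 with Cell Ranger, given as version 6 in the submitters' processing notes and as 6.0.1 (stroma) and 7.1.0 (epithelium) in the file headers. Whether both versions counted introns alike is not given in the sources used here.

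Barcodes needed 500 genes or more, and no more than 10% of their UMIs could be mitochondrial. Classes were cells past a level of summed markers per 10000 UMIs with at least 3 markers detected, those levels being set after the data were seen. Cells past several of the goblet-like, colonocyte-like, enteroendocrine-like and tuft-like gates were left out of the classes but stayed in the library sums. The same held for stromal cells past several of the endothelial-like, glia-like, neuron-like and macrophage-like gates. Of these, cells past the glia-like and neuron-like gates alone went to the class with more markers detected. Cells past the cycling gate and a differentiation gate kept the differentiated class, and those past the stem-like and cycling gates were cycling. No doublet caller was run. UMIs were summed per library and class (at least 20 cells) and tested with edgeR 4.0.16 in R 4.3.3 (quasi-likelihood test, filterByExpr, TMM, Benjamini-Hochberg adjustment over all genes tested). Class comparisons had the library as a block. For shares of cells with a UMI, each cell was thinned to 2000 UMIs, shallower cells being left out, with exact Clopper-Pearson 95% intervals. The fitting steps were also run on simulated data with known changes, whose results are not given here. DESeq2 1.42.0, other cell filters, stricter gates, no count filter, no library block and leaving out each library were the alternatives. Leaving out stromal cells of no class was added after seeing the data. The basal squamous gate was applied only among epithelial-gated cells. The other 53 pathway genes are listed by function, and at most 4 called ones per comparison, those with the largest change, are named. The members and all lists were chosen with earlier results of these data known. Whether the replicate numbers pair libraries across groups is not given in the labels.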

Additional observations from a re-analysis of the deposited data

Results flagged for a closer look

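The interaction term of edgeR's quasi-likelihood test called 3 of 9 members whose difference between goblet-like and colonocyte-like cells differed between assembloids and tissue. Over all genes tested, 10.7% were called (5.75% positive, 4.92% negative). Assembloid library 1 was shallower in both classes than the tissue libraries, and the part of depth was not tested. Dll4 differed by -3.64 on the log2 scale (adjusted p = 0.000316), a call made in every fit without 1 library. Hes1 differed by 1.25 (adjusted p = 0.00732), a call lost without tissue library 1 (adjusted p = 0.203) and without the library block (adjusted p = 0.126). Nrarp differed by 2.65 (adjusted p = 0.0137), a call lost without either tissue library or assembloid library 2 (adjusted p from 0.137 to 0.159).

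Cells left out of the reported comparisons held members at high levels. Basal squamous-like cells among the stroma (690 and 30 cells), led by keratins such as Krt5, Krt14 and Krt15, had 69.96 and 83.4 CPM of Notch1, 26.1 and 35.7 CPM of Jag1, 29.95 and 30.3 CPM of Jag2 and 14.1 and 20.6 CPM of Nrarp. Macrophage-like cells among the assembloid epithelium (811 and 237 cells) had 33.1 and 54.1 CPM of Notch2.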

How the results depend on the processing

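Over tested fits without 1 library, 497 of 584 member values kept their direction and side of the threshold, 37 lost and 12 gained a call, and 38 changed sign with no call before or after. Leaving out a stroma library left no residual degrees of freedom for stromal classes. There, log2 ratios of CPM in the remaining library were taken, with a small added count, without TMM factors and with no test. Of these 82 values, 71 had the same sign and 11 the opposite sign, the latter all of members not called in the reported fit. Between the reported fit and ratios of CPM, Jag1 and Hey1 in contractile-like cells and Notch1 and Nrarp between trophocyte-like and telocyte-like cells also differed in sign. The part of this change of method in the sign changes was not tested. Over the other alternatives, 607 of 677 kept both, 24 lost and 16 gained a call, and 30 changed sign, 28 of them with no call before or after. The other 2 were Nrarp between stroma and assembloid epithelium with all passing cells (0.16) and Notch1 between goblet-like and colonocyte-like cells of tissue under the stricter gate (-3.30). The cause was not tested for these or the following. Members called between trophocyte-like and telocyte-like cells fell from 3 (1597 genes at large) to 1 with DESeq2 (984) and to 1 without the library block (517). Between goblet-like and colonocyte-like cells of assembloids, 1 member was called, with 4674 genes called at large. The count of members called became 0 with DESeq2 (5241 genes at large), 3 with no filter on low counts (4907) and 0 without the library block (2284). It became 4 under the stricter gate (4612 genes at large) and also changed in fits without 1 library. Without 1 library the count ran from 1 to 4 for the same classes of tissue (1 without tissue library 1), from 1 to 3 for the interaction (1 without tissue library 1) and from 2 to 4 for cycling cells of organoids against tissue (2 without organoid library 1 or either tissue library).

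The other values that changed sign, of members not called in the reported fit, were as follows on the log2 scale. With at most 5% mitochondrial UMIs, sign changes put Jag1 at 0.091 in assembloids against tissue, Nrarp at 0.16 in organoids against tissue and Hes1 at -0.17 in stroma against assembloid epithelium. With no filter on low counts, they put Nrarp at 0.015 in organoids against tissue and Hes1 at -0.17 in stroma against assembloid epithelium. With all passing cells, they put Dll1 at -0.17 in organoids against assembloids and Jag1 at 0.26 in stroma against assembloid epithelium. With DESeq2, they put Hes1 at -0.13 in stroma against assembloid epithelium, Dll4 at 0.91 in glia-like cells, Dll4 at 0.033 in neuron-like cells, Hey1 at 0.0070 and Nrarp at 0.031 in contractile-like cells, Jag1 at 0.049 in the goblet-like contrast of tissue, Notch3 at 0.14 in the interaction, Notch2 at 0.055 in cycling cells of assembloids against tissue and Dll1 at -0.13 in cycling cells of organoids against assembloids. With the 4 assembloid libraries alone, they put Hes1 at -0.17 in stroma against assembloid epithelium. Under the stricter gate, they put Nrarp at 1.38 in contractile-like cells, Notch1 at -0.15, Dll4 at 1.56 and Nrarp at -0.54 in trophocyte-like against telocyte-like cells, Jag1 at 0.34 in the goblet-like contrast of tissue, Notch3 at 1.14, Jag1 at -0.24 and Dll1 at 3.10 in the interaction, Notch3 at -0.19 in cycling cells of organoids against tissue and Dll1 at -0.53 in cycling cells of organoids against assembloids. Without the library block, they put Jag1 at 0.0012 in the goblet-like contrast of tissue. Without 1 library, the values of members that changed sign had these ranges, which between stromal classes are the ratios of CPM described above. In organoids against tissue, Nrarp ran from -0.35 to 0.21. In organoids against assembloids, Jag1 ran from -0.88 to 0.041 and Hes1 from -0.21 to 0.44. In stroma against assembloid epithelium, Notch2 ran from -0.31 to 0.075, Jag1 from -0.75 to 0.13 and Hes1 from -0.17 to 0.53. In endothelial-like cells, Hes1 ran from -0.16 to 0.35. In glia-like cells, Nrarp ran from -3.87 to 3.78. In neuron-like cells, Notch2 ran from -0.89 to 0.055 and Nrarp from -1.71 to 1.00. In contractile-like cells, Jag1 ran from 0.00024 to 0.065 and Hey1 from -0.36 to 0.37. In trophocyte-like against telocyte-like cells, Notch1 ran from -0.30 to 0.20, Jag1 from -0.28 to 0.0020, Dll4 from -1.94 to 1.31 and Nrarp from -0.50 to 0.80. In the goblet-like contrast of tissue, Notch1 ran from -0.21 to 0.38, Notch2 from -0.56 to 1.40, Notch3 from -8.41e-13 to 4.21 and Jag1 from -0.15 to 0.041. In the goblet-like contrast of assembloids, Notch2 ran from -0.16 to 0.31 and Jag2 from -0.34 to 0.29. In the interaction, Notch2 ran from -1.40 to 0.61, Notch3 from -2.87 to 1.29, Jag2 from -0.23 to 0.36 and Dll1 from -1.34 to 0.53. In cycling cells of assembloids against tissue, Notch2 ran from -0.18 to 0.077 and Jag1 from -0.035 to 0.43. In cycling cells of organoids against tissue, Notch2 ran from -0.16 to 0.60 and Notch3 from -0.093 to 1.26. In cycling cells of organoids against assembloids, Notch2 ran from -0.17 to 0.68, Dll1 from -0.29 to 0.30 and Hes1 from -0.64 to 0.00043.

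Genes called at large moved by over 1.5 times in some settings. For contractile-like cells they went from 357 to 47 without the library block and 819 with no filter, for trophocyte-like against telocyte-like cells from 1597 to 984 with DESeq2 and 517 without the block, for the interaction from 1909 to 645 without the block, 1250 under the stricter gate and 506 or 915 without tissue library 1 or 2, and for goblet-like cells of assembloids from 4674 to 2284 without the block. Without tissue library 1 or 2 they were 3560 or 4109 of 6688 for goblet-like cells of tissue, 5294 or 5615 of 9561 between assembloids and tissue, 5206 or 5394 of 9101 between organoids and tissue, 2704 or 3435 of 6818 in cycling cells of assembloids and 1730 or 2133 of 5413 in those of organoids. Without organoid library 1 cycling cells gave 3133 of 5413 against tissue and 5082 of 7635 against assembloids.

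Unthinned shares of cells with a UMI were larger. The unthinned sets with and without an Atoh1 UMI are not matched in depth. For Dll4 they were 27.3% and 23.6% in goblet-like cells of tissue, 55.2% and 42.9% in endothelial-like and 0.210% and 0.198% in fibroblast-like cells. For Dll1 they were 21.5% and 23.8% in telocyte-like and 3.19% and 2.18% in trophocyte-like cells. In tissue cells with an Atoh1 UMI, Hes1 was in 70.1% and 56.9% and Dll1 in 27.1% and 15.8%, and in cells without one in 78.2% and 56.5% and in 5.25% and 4.70%. Dll4 was in 27.7% and 20.5% of tissue cells with and 4.16% and 4.20% without an Atoh1 UMI, and Notch1 in 11.5% and 9.15% with and 20.1% and 10.5% without one. Hes1 was in 58.3% and 59.8% of assembloid cells with and 39.95% and 48.8% without one, and in 76.8% and 73.1% of organoid cells with and 80.2% and 69.7% without one.

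The labels do not say whether replicate numbers pair libraries. Deviations of same-numbered libraries correlated between -0.19 and 0.22 across pairs of groups, which cannot show whether they share a source. A replicate block changed 1 of 67 member calls, Jag1 in cycling cells of organoids against tissue, at -0.97 with an edgeR adjusted p of 0.0390. With the block, the counts of members called stayed within 1.5 times the reported ones.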

Other observations

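The genes whose levels ran most like each member over 37 sums of library and class with at least 50 cells were read from Pearson's r of log2 CPM among 6532 abundant genes. The sums share libraries and differ in depth, so r is a description. For Nrarp they were Trp53i11 (r = 0.901) and Sorbs2 (0.881), for Notch2 Ano6 (0.904) and Polr1a (0.834), and for Notch1 Fbxo28 (0.870) and 5031439G07Rik (0.863). For Dll4 they were Ehd4 (0.868) and Tspan13 (0.864), for Jag2 Gars (0.872) and Lyrm9 (0.854), and for Dll1 Mxd4 (0.822) and Arap1 (0.783). Notch3 ran most like Yaf2 (0.844) and Zc3h14 (0.842), Hey1 like Tmx3 (0.853) and Rab7 (0.835), Jag1 like Cttnbp2nl (0.770) and 4931406P16Rik (0.732), and Hes1 like Yap1 (0.763) and Dlat (0.722).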
